A study of Mus musculus with 12 samples.

Results

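Skin from mice of the labelled-null genotype was compared after 3 days under a gauze patch carrying extract of the mould Aspergillus fumigatus, named ASP in the labels, and after the treatment the labels call SAL. The comparison rests on 6 of the 12 bulk RNA-seq libraries of the series, 3 under ASP and 3 under SAL, and it was made over all 15341 genes that passed a filter on low counts. The 6 libraries were picked by their titles and table columns, without use of any measured value. The labels do not expand SAL and give no dose for it.

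All mice of the series share the BALB/c strain and pathogen-free housing. A square of 2 cm a side was shaved on the back on day 0, a patch with 200 µg of extract was taped on at day 1 and removed at day 4, and skin from the patched area was collected at day 5. The remaining 6 libraries come from wild-type BALB/c skin under the same pair of treatments and serve for the estimate of spread and for the comparison of genotypes. The labels describe the genotype in 3 ways. The library titles read SCCA2KO, the genotype field reads Serpinb3a-transgenic, and the design text speaks of Serpinb3a null animals. No label gives the allele, a promoter, the age or the sex, and none says whether each library of a group is a different animal, so p-values measure only the spread between these samples.

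Serpinb3a encodes an intracellular serpin that blocks cysteine and serine proteases, and it belongs to a cluster of closely related mouse genes that correspond to the human squamous cell carcinoma antigens. Extracts of Aspergillus contain proteases, cell wall glucans and allergens. In skin, keratinocytes answer protease and pattern receptor signals with alarmins such as IL-33 and TSLP, with IL-1 and IL-36 cytokines and with chemokines. Those signals recruit eosinophils, mast cells, T cells and alternatively activated macrophages in type 2 responses, and neutrophils in type 17 responses.

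In replicates 1, 2 and 3, total counts were 6705396, 12933436 and 12009435 under SAL, then 10456277, 11268730 and 8115038 under ASP. Genes of the major urinary proteins (Mup), highly similar copies among which reads may be misplaced, took 18.7% to 39.0% of the counts under SAL and 13% to 22.4% under ASP. Spearman correlations of log2 values had a median of 0.939 over the 6 pairs within a group and 0.935 over the 9 pairs between groups. SAL replicate 1 stood apart: it was the shallowest library, it lay at -102.6 on a first principal component (39.9% of the variance) where the other 5 labelled-null libraries lay between 8.65 and 39.2, and its lists of basal, suprabasal and junction genes stood lowest and its adipocyte list highest of the 6. Skin markers were present in every library, with Krt14 of basal keratinocytes between 144 and 610 CPM. CPM, the count scaled to library size, uses library sizes adjusted by the trimmed mean of M-values (TMM), and values are listed in the order of replicates 1, 2 and 3. Striated muscle was present as well, with Ckm, the muscle creatine kinase, at 657 CPM or more in each library. In bulk tissue, fewer cells of a type and less RNA per cell cannot be told apart.

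No gene passed the test for ASP against SAL in labelled-null skin. With edgeR's quasi-likelihood test, 0% of genes were called higher and 0% lower at a Benjamini-Hochberg adjusted p under 0.05. No adjusted p was smaller than 0.989. DESeq2 on the same counts called 0 genes higher and 2 lower, Gm15093 and Gsta2, each high in 1 SAL library, and limma-voom called 0 in either direction. Without adjustment, 237 genes stood higher under ASP at a p under 0.05 (1.54%) and 456 stood lower (2.97%). Their sum of 693 compares with 767, which is 5% of 15341. The 3 ASP libraries all lay above the 3 SAL libraries for 897 genes (5.85%) and all below them for 710 (4.63%). The median log2 fold change was -0.01, and the 5% and 95% quantiles were -1.04 and 0.91. The coefficient of biological variation common to all genes was 0.427 and the median standard error (SE) of a log2 fold change was 0.46, and 9.48% of genes lay beyond a 2-fold difference. Every gene and list named below is therefore described by its level in each library and by a log2 fold change with its SE, and none of them was called by edgeR.

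**Figure D1:**
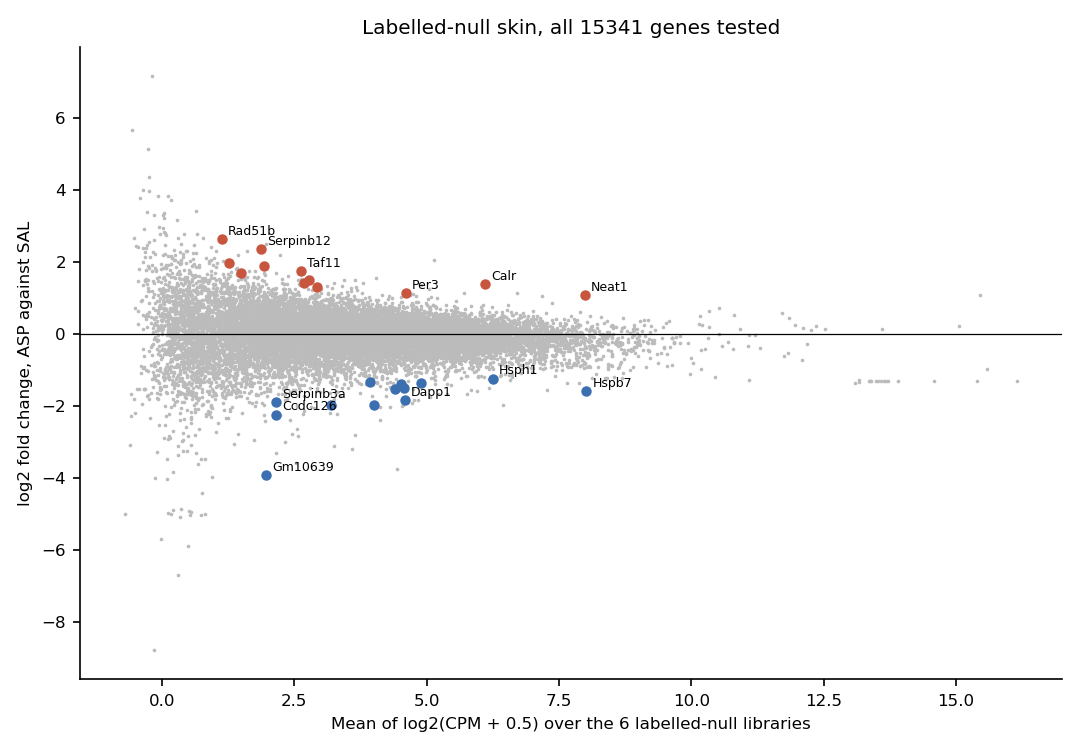
Each point is a gene, plotted by its mean level over the 6 labelled-null libraries on the log2(CPM + 0.5) scale (x) and its log2 fold change for ASP against SAL (y). Red and blue points are the 12 genes per direction with the smallest unadjusted p among genes whose groups did not overlap, plus Serpinb3a, and some are named; the row of points near -1.29 at the right holds the Mup copies.

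Serpinb3a, the gene the genotype is named for, was counted in all 6 labelled-null libraries, had 6.39, 8.61 and 7.21 CPM under SAL and 2.31, 1.74 and 1.98 CPM under ASP (log2 fold change -1.88 ± 0.61 SE). The 3 SAL values all exceeded the 3 ASP values. Wild-type skin averaged 0.583 CPM under SAL and 0.788 CPM under ASP, below the lowest labelled-null library, so the count of the gene goes against the null label, and which exons the counted reads cover was not tested. The gene lies on chromosome 1 from 107045587 to 107052303 in the mm10 build. The 3 neighbouring copies did not share this order. Serpinb3b stood at 6.87, 7.06 and 6.64 CPM under SAL and 8.08, 7.05 and 8.14 CPM under ASP and overlapped between the groups (0.18 ± 0.49 SE). Serpinb3c had 1.92, 2.27 and 0.949 CPM under SAL and 1.15, 1.29 and 0.991 CPM under ASP (-0.56 ± 0.70 SE). Serpinb3d stood at 2.08, 2.75 and 2.18 CPM under SAL and 2.12, 0.834 and 0.550 CPM under ASP (-1.0 ± 0.78 SE). Both of these overlapped as well. The copies differed in how they stood to wild-type skin. There Serpinb3b averaged 24.1 CPM under SAL and 14.9 CPM under ASP, and Serpinb3c 2.59 and 2.36 CPM, above every labelled-null library. Serpinb3d averaged 0.201 and 0.177 CPM in wild type, below every labelled-null library, as Serpinb3a did. The 4 genes are close copies, so reads may be shared among them, and their libraries held only 5 to 93 counts per gene.

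The other clade B serpins, a family that includes protease inhibitors of the epidermis and of blood cells, had no common direction. Of 14 tested, 9 had a positive log2 fold change and the median was 0.13 (-0.11 to 0.28 without 1 library), beside -0.01 over all genes. Serpinb12 was among the 12 higher genes with the smallest p, had 2.56, 0.598 and 1.33 CPM under SAL and 4.90, 13 and 4.95 CPM under ASP (2.37 ± 0.72 SE), with the highest value in ASP replicate 2. Serpinb5, known as maspin and made by keratinocytes, stood at 138, 292 and 273 CPM under SAL and 302, 296 and 407 CPM under ASP (0.52 ± 0.32 SE). Serpinb9, an inhibitor of granzyme B, had 17.6, 10.3 and 11.5 CPM under SAL and 9.52, 5.68 and 7.37 CPM under ASP (-0.80 ± 0.45 SE). In neither gene did the groups overlap, Serpinb5 being higher and Serpinb9 lower under ASP. Serpinb13 ranged from 0.160 to 0.957 CPM under SAL and from 0.110 to 3.26 CPM under ASP and overlapped.

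The 12 genes without overlap that stood higher at the smallest p, among genes of at least 1 on the mean log2(CPM + 0.5) scale, included none of the listed type 2 cytokines or chemokines. Many of those could not have entered. Il4, Il5, Il13 and Ccl20, among others, were too scarce to test, and Tslp lay below the cut at 0.51. The log2 fold changes of the 12 genes lay between 1.09 and 2.65. Rad51b, which acts in repair by homologous recombination, stood at 0.160, 0.718 and 0.949 CPM under SAL and 4.61, 3.79 and 3.74 CPM under ASP (2.65 ± 0.69 SE). It rests on few reads, since its SAL libraries held 1, 6 and 10 counts and its ASP libraries 48, 50 and 34. Tmem67, a transmembrane protein of the ciliary transition zone, had 0.959, 2.39 and 1.8 CPM under SAL and 8.65, 5.84 and 4.84 CPM under ASP (1.88 ± 0.49 SE). Rab23, a small GTPase that restrains hedgehog signalling, stood at 5.11, 3.11 and 5.41 CPM under SAL and 10.7, 9.62 and 13.8 CPM under ASP (1.32 ± 0.39 SE). For both genes each ASP library exceeded the highest SAL library. Dolk, the dolichol kinase that supplies the lipid carrier of N-glycans, had 4.47, 2.75 and 4.08 CPM under SAL and 9.23, 10 and 13 CPM under ASP (1.51 ± 0.43 SE). Pigo, an enzyme of glycosylphosphatidylinositol anchor synthesis, stood at 2.88, 4.07 and 3.89 CPM under SAL and 9.23, 9.47 and 10.3 CPM under ASP (1.41 ± 0.43 SE). Calr, the calcium-binding lectin chaperone of the endoplasmic reticulum, had 42.7, 38.3 and 48.5 CPM under SAL and 157, 112 and 73.2 CPM under ASP (1.40 ± 0.41 SE), with ASP replicate 1 highest.

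The other 5 higher genes named by the same rule have diverse roles. Neat1, the noncoding RNA that builds nuclear paraspeckles, stood at 109, 167 and 261 CPM under SAL and 392, 407 and 343 CPM under ASP (1.09 ± 0.36 SE). Per3, a period gene of the circadian clock, had 11, 13.5 and 24.8 CPM under SAL and 36.3, 34.3 and 39.2 CPM under ASP (1.15 ± 0.37 SE). Hcls1, a cortactin relative of blood cells, stood at 1.12, 0.957 and 1.71 CPM under SAL and 4.13, 3.33 and 5.06 CPM under ASP (1.70 ± 0.57 SE). Both Neat1 and Per3 had their highest SAL value in replicate 3, still below each ASP library. Taf11, a subunit of the general transcription factor TFIID, had 1.6, 2.87 and 5.12 CPM under SAL and 12.6, 7.43 and 12.8 CPM under ASP (1.75 ± 0.58 SE). Fbxw9, an F-box protein of ubiquitin ligases, stood at 1.28, 0.598 and 0.949 CPM under SAL and 4.23, 4.77 and 2.20 CPM under ASP (1.99 ± 0.63 SE).

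The 12 genes named by the same rule in the lower direction had log2 fold changes between -3.91 and -1.23. Dapp1, a lipid-binding adaptor downstream of the B cell receptor, had 62.8, 34.6 and 39.2 CPM under SAL and 14, 9.17 and 14.9 CPM under ASP (-1.84 ± 0.43 SE). Cd209a, a mouse homolog of the C-type lectin DC-SIGN on dendritic cells, stood at 62.3, 33.0 and 28.9 CPM under SAL and 17.8, 7.81 and 18.6 CPM under ASP (-1.49 ± 0.41 SE). Havcr2, the inhibitory receptor TIM-3 of T cells and myeloid cells, had 28.6, 26.0 and 16.9 CPM under SAL and 9.52, 7.65 and 11 CPM under ASP (-1.34 ± 0.36 SE). In all 3 genes each SAL library lay above each ASP library. Adam12, a metalloprotease of remodelling tissue, stood at 39.9, 26.1 and 45.0 CPM under SAL and 17.7, 10.2 and 14.7 CPM under ASP (-1.38 ± 0.33 SE). Hspb7, a small heat shock protein of heart and skeletal muscle, had 487, 443 and 442 CPM under SAL and 211, 139 and 106 CPM under ASP (-1.59 ± 0.44 SE), with SAL values that lay close together. ASP replicate 1 was the highest ASP library for both Adam12 and Hspb7. Ubxn6, a cofactor of the segregase p97, stood at 75.9, 29.8 and 40.7 CPM under SAL and 22.2, 18.3 and 16.5 CPM under ASP (-1.36 ± 0.36 SE). Mettl22, a protein methyltransferase, had 37.4, 21.8 and 48.5 CPM under SAL and 12.4, 11.6 and 13.3 CPM under ASP (-1.53 ± 0.40 SE).

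Gla, the lysosomal alpha-galactosidase, stood at 69.5, 16.9 and 17.5 CPM under SAL and 9.52, 9.47 and 7.15 CPM under ASP (-1.98 ± 0.55 SE). Stk11ip, a partner of the kinase LKB1, had 32.1, 7.90 and 15.2 CPM under SAL and 5.00, 4.09 and 4.95 CPM under ASP (-1.97 ± 0.50 SE). In both, SAL replicate 1 was far above the other SAL libraries. Ccdc126 stood at 3.83, 18.1 and 6.26 CPM under SAL and 1.44, 2.73 and 1.76 CPM under ASP (-2.24 ± 0.62 SE), with the highest value in SAL replicate 2.

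**Figure D2:**
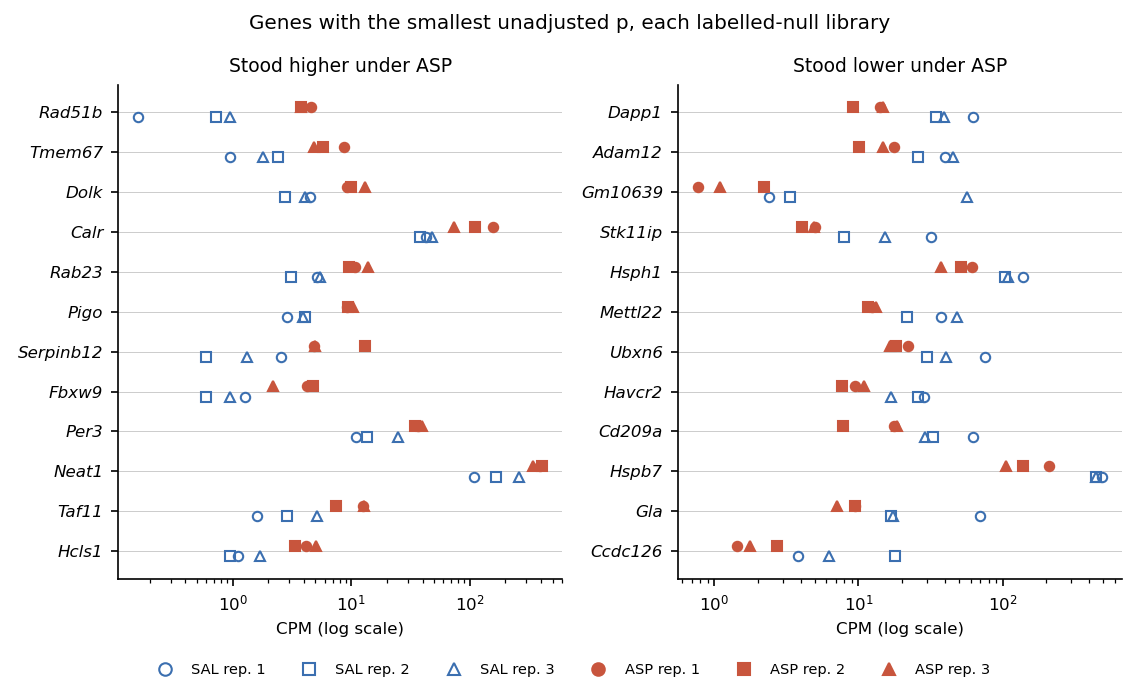
Levels in each labelled-null library of the 12 higher (left) and 12 lower (right) genes with the smallest unadjusted p, on a log scale of CPM (x). Open blue marks are SAL and filled red marks ASP libraries, the marker shape gives the replicate, and the groups do not overlap because the rule asked for that; Gm10639 owes its distance to SAL replicate 3 at 56.4 CPM.

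Hsph1, which encodes the Hsp110 exchange factor of Hsp70 chaperones, had 139, 104 and 109 CPM under SAL and 60.9, 51.2 and 37.6 CPM under ASP (-1.23 ± 0.32 SE) and was the member of the chaperone list with the smallest p. Heat shock genes are classically switched on by HSF1, which binds inverted repeats of the sequence GAA. Of the 2 promoters listed for Hsph1, the first that holds such a repeat is shown, so it was picked by its motif. Its start site lies inside the annotated gene, whose span ends at 149636498, and the match begins 36 bases after that start site. The shown promoter spans chr5:149636287-149636586 on the minus strand (RefSeq, GRCm38.p6), from 250 bases before to 50 after its start site. Capitals mark the match to the motif GAANNTTCNNGAA on either strand.
Hsph1 promoter: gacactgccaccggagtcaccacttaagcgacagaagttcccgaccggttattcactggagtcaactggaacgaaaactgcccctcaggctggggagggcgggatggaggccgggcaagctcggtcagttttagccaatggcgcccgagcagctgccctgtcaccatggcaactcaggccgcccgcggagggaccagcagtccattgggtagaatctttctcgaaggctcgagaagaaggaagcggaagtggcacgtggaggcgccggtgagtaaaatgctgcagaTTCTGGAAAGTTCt
The motif was searched on both strands of all 32851 listed promoters and occurred in 198 of them (0.603%). Of the 23 heat shock chaperone genes listed, 17 had a promoter in the table and 4 of these held the motif, namely Hsph1, Hspd1, Hspe1 and Chordc1. A match is a description of letters and not a binding site.

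Heat shock chaperones had mostly negative log2 fold changes. Of 23 members, 18 had a negative log2 fold change, the median was -0.28, and 3 stood lower without overlap, a share to be set beside the 4.63% of all genes. Hsp90aa1, the inducible Hsp90, stood at 399.9, 327 and 406 CPM under SAL and 258, 186 and 242 CPM under ASP (-0.72 ± 0.32 SE). Dnajb1, the Hsp40 partner of Hsp70, had 31.5, 34.9 and 28.2 CPM under SAL and 20.1, 23.9 and 16.6 CPM under ASP (-0.64 ± 0.34 SE). These and Hsph1 are the 3 members without overlap. Dnaja1, another Hsp40 protein, stood at 195, 388 and 459 CPM under SAL and 237, 150.4 and 209 CPM under ASP (-0.80 ± 0.34 SE), and SAL replicate 1 lay within the ASP range. Leaving out 1 library at a time, the list median ran from -0.42 to -0.19. The mean deviation of the list was high in SAL replicates 2 and 3, while SAL replicate 1 lay within the range of the ASP libraries. In wild-type skin the median of the same list was -0.20, with 7 of 23 positive.

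**Figure D3:**
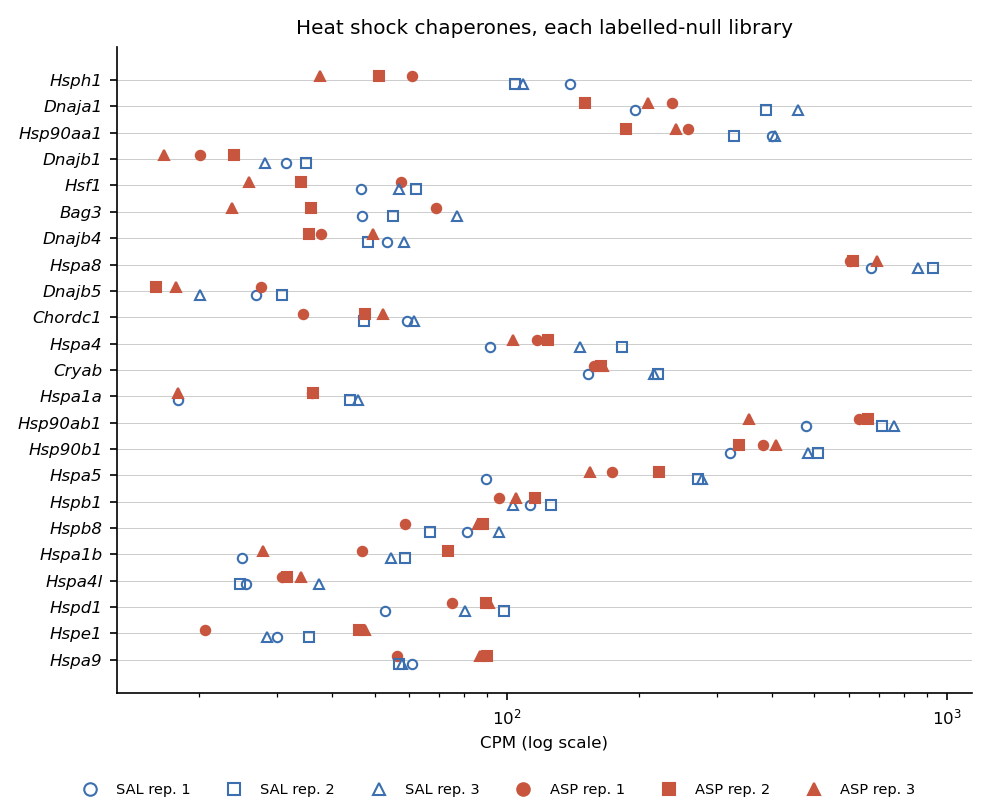
CPM of each heat shock chaperone gene in each labelled-null library on a log scale (x), ordered from the most negative log2 fold change at the top. Open blue marks are SAL and filled red marks ASP libraries; Hsph1, Hsp90aa1 and Dnajb1 do not overlap, and most others do.

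A cluster of alpha-class glutathione transferase genes, which conjugate glutathione to electrophiles, had negative log2 fold changes whose size rests largely on a single library. Gsta2 had 3.04, 5.86 and 76.4 CPM under SAL and 2.12, 3.18 and 1.76 CPM under ASP (-3.59 ± 0.90 SE). Gsta1 stood at 4.95, 3.35 and 55.1 CPM under SAL and 2.21, 3.87 and 2.75 CPM under ASP (-2.84 ± 0.83 SE). The predicted gene Gm10639 had 2.40, 3.35 and 56.4 CPM under SAL and 0.769, 2.20 and 1.10 CPM under ASP (-3.91 ± 0.96 SE). SAL replicate 3 was high in all 3 genes, and the other 2 SAL libraries held between 2.40 and 5.86 CPM. Gsta1 and Gsta2 overlapped between the groups, and Gm10639 did not. Without SAL replicate 3 the log2 fold changes were -0.91 for Gsta2, -0.48 for Gsta1 and -1.07 for Gm10639. The 3 genes are closely related copies on chromosome 9, so that reads may be shared among them and each value is uncertain. Of the 50-base stretches in the annotated transcripts, 53.9% of those of Gsta1, 49.3% of those of Gsta2 and 40.9% of those of Gm10639 also occur in another of the 3. The bases around their start sites (RefSeq, GRCm38.p6) are shown for that reason, with capitals marking the longest run common to all 3 listed promoters, 24 bases. The windows are chr9:78230638-78230718 (plus strand) for Gsta1, chr9:78347096-78347181 (minus strand) for Gsta2 and chr9:78289910-78289977 (plus strand) for Gm10639.
Gsta1: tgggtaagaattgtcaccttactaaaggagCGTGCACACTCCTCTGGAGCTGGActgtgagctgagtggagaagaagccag
Gsta2: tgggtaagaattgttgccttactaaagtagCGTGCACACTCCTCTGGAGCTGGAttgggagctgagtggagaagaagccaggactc
Gm10639: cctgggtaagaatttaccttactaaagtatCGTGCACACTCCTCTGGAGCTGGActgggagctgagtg
The oxidative stress and glutathione list as a whole lay at the all-gene median. Of 35 members, 16 were positive, and the median was -0.03. Without overlap, 5 stood lower, beside 4.63% of all genes, and 0 higher. Cat, the peroxisomal catalase that breaks down hydrogen peroxide, stood at 664, 568 and 381 CPM under SAL and 329, 196 and 167 CPM under ASP (-1.22 ± 0.47 SE), without overlap between groups.

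The gene lists below were drawn from textbook knowledge with earlier results of these data known, so their counts are descriptions beside the all-gene values of 48.8% positive and a median of -0.01. Of the 46 lists, the lowest medians belonged to neutrophil markers, the Serpinb3 cluster and epidermal stress genes, and the highest to red blood cell transcripts. The median of 16 lists kept its sign when each labelled-null library was left out in turn. That of 30 lists changed sign without at least 1 of these libraries.

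**Figure D4:**
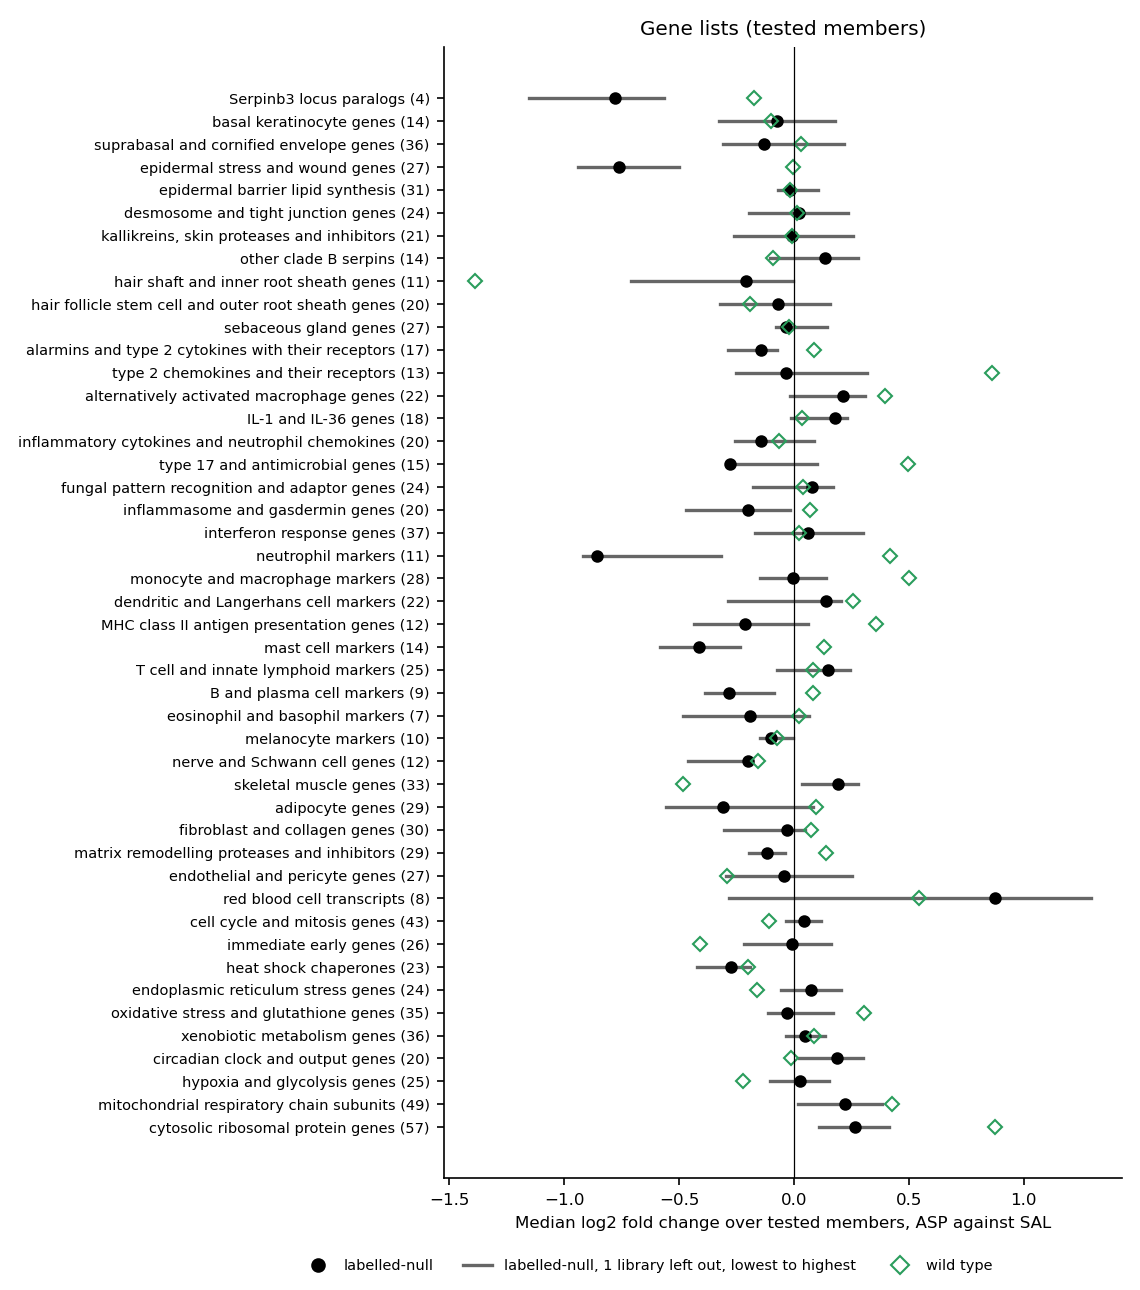
Median log2 fold change, ASP against SAL (x), over the tested members of each gene list, with the number of tested members in parentheses. Black points are labelled-null skin, grey bars the lowest to highest median when 1 of the 6 libraries is left out, and green diamonds wild-type skin; the red blood cell bar crosses 0, while epidermal stress genes stay below 0.

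Epidermal stress and wound genes, which keratinocytes switch on after injury or irritation, had mostly negative log2 fold changes. Of 27 tested of 36 in the table, 3 were positive, the median log2 fold change was -0.76, and leaving out 1 library at a time gave -0.94 to -0.50. Without overlap, 3 stood lower and 1 higher, beside 4.63% and 5.85% of all genes. The mean deviation of the list in SAL replicate 1 lay within the range of the ASP libraries. Stfa3, one of several near-identical stefins that block cathepsins, had 111, 15.0 and 6.64 CPM under SAL and 6.15, 6.90 and 5.72 CPM under ASP (-2.81 ± 0.97 SE). The groups overlapped, and SAL replicate 1 alone was far above the rest, without which the log2 fold change was -0.78. Sprr2b, which is crosslinked into the cornified envelope, stood at 0.959, 2.99 and 0.474 CPM under SAL and 0.288, 0.152 and 0.110 CPM under ASP (-2.92 ± 1.17 SE), lower without overlap on 1 to 25 counts per library. Sprr2a1 and Sprr2a2 had identical counts in every library, and each stood at 7.99, 42.1 and 8.35 CPM under SAL and 8.65, 4.09 and 6.6 CPM under ASP (-1.60 ± 0.68 SE). SAL replicate 2 alone was high for them. The alarm antimicrobial peptides S100a8 and S100a9 were scarce, and both overlapped. S100a8 stood at 1.44, 4.43 and 4.08 CPM under SAL and 1.54, 1.29 and 0.220 CPM under ASP (-1.69 ± 1.11 SE). S100a9 ranged from 0.160 to 4.75 CPM under SAL and from 0.330 to 2.5 CPM under ASP (-0.86 ± 1.16 SE). Lcn2, which sequesters bacterial siderophores, ranged from 6.17 to 19.2 CPM under SAL and from 1.92 to 11.5 CPM under ASP (-0.91 ± 0.79 SE) and overlapped.

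The wound keratins Krt6a and Krt16 overlapped as well. Krt6a had 71.4, 231 and 299 CPM under SAL and 306, 214 and 121 CPM under ASP (0.09 ± 0.60 SE). Krt16 stood at 12.3, 63.5 and 45.6 CPM under SAL and 38.6, 42.1 and 29.8 CPM under ASP (-0.14 ± 0.63 SE). The lowest value of both was SAL replicate 1.

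Lists of structural epidermal genes lay near the all-gene median. Of the 14 basal keratinocyte genes, 5 were positive (median -0.08), and of the 36 tested suprabasal and cornified envelope genes, 14 were (median -0.13, -0.31 to 0.22 without 1 library). Krt14 had 144, 609.5 and 421 CPM under SAL and 385, 344 and 256 CPM under ASP (-0.25 ± 0.44 SE). Krt10, the keratin of spinous cells, stood at 1182, 5465 and 3819 CPM under SAL and 4062, 6377 and 3774 CPM under ASP (0.44 ± 0.54 SE). Loricrin (Lor), the bulk of the cornified envelope, had 120.1, 587 and 417 CPM under SAL and 475, 598 and 249 CPM under ASP (0.23 ± 0.55 SE). Involucrin (Ivl), an early envelope protein, stood at 40.6, 94.4 and 64.2 CPM under SAL and 69.2, 59.1 and 61.6 CPM under ASP (-0.07 ± 0.34 SE). SAL replicate 1 held the lowest value of all 4 genes. Filaggrin (Flg) was not analysed here. Cornifelin (Cnfn) had 176, 175 and 131 CPM under SAL and 126, 81.1 and 82.5 CPM under ASP (-0.74 ± 0.36 SE). Casp14, the caspase of cornification, stood at 223, 193 and 154 CPM under SAL and 148, 98.7 and 81.9 CPM under ASP (-0.80 ± 0.49 SE). Both were lower under ASP without overlap. Dmkn, a secreted protein of differentiated keratinocytes, ranged from 73.0 to 167 CPM under SAL and from 140.0 to 313 CPM under ASP (0.87 ± 0.45 SE) and overlapped.

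Barrier lipid, junction and protease lists lay at the all-gene median. Barrier lipid synthesis had 15 of 31 members positive (median -0.02). Within it, the sphingomyelin synthase Sgms1 had 136, 148 and 143 CPM under SAL and 93.1, 82.1 and 90.6 CPM under ASP (-0.69 ± 0.27 SE). Sptlc3, a subunit of the enzyme that starts sphingolipid synthesis, stood at 147, 192 and 121 CPM under SAL and 109, 65.9 and 79.6 CPM under ASP (-0.86 ± 0.37 SE). Both stood lower without overlap. Cyp4f39, which hydroxylates the very long fatty acids of skin ceramides, ranged from 2.40 to 7.40 CPM under SAL and from 7.37 to 14.7 CPM under ASP (1.24 ± 0.62 SE), the groups meeting at their edges. Desmosome and tight junction genes had 13 of 24 positive (median 0.02) and kallikreins with other skin proteases 10 of 21 (median -0.01). Klk9, a kallikrein, ranged from 41.2 to 108 CPM under SAL and from 20.4 to 56.1 CPM under ASP (-1.02 ± 0.62 SE). Ctsd, the aspartic protease cathepsin D, ranged from 196 to 544 CPM under SAL and from 187 to 306 CPM under ASP (-0.58 ± 0.38 SE). Both overlapped.

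Hair and gland lists had medians at or a little below the all-gene value. Only 11 of 37 hair shaft and inner root sheath genes passed the filter (median -0.21), and the range without 1 library was -0.71 to -0.01. Foxn1, a transcription factor of hair keratinization, ranged from 10.1 to 41.8 CPM under SAL and from 6.6 to 23.6 CPM under ASP (-0.75 ± 0.52 SE). The hair follicle stem cell list had 8 of 20 members positive (median -0.07) and the sebaceous list 13 of 27 (median -0.03). Vdr, the vitamin D receptor needed for hair cycling, ranged from 83.3 to 104 CPM under SAL and from 27.6 to 91.5 CPM under ASP (-0.58 ± 0.42 SE) and overlapped, with its lowest value in ASP replicate 3.

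No member of the type 2 cytokine list separated the groups. The alarmin Il33 had 20.9, 35.4 and 47.6 CPM under SAL and 37.5, 37.7 and 33.3 CPM under ASP (0.06 ± 0.38 SE). Tslp stood at 1.44, 0.120 and 0.664 CPM under SAL and 1.25, 0.985 and 1.76 CPM under ASP (0.87 ± 0.92 SE). The 3 ASP values of Il33 lay inside the SAL range. Il4 had 0, 0 and 7 counts under SAL and 1, 0 and 1 under ASP, and Il13 had 1, 0 and 1 and then 0, 5 and 0, too few to test. Among receptors, Il1rl1, which binds IL-33, had 9.27, 12.3 and 13.5 CPM under SAL and 4.52, 4.62 and 10.7 CPM under ASP (-0.83 ± 0.49 SE), with ASP replicate 3 inside the SAL range. Il4ra, which serves both IL-4 and IL-13, ranged from 18.7 to 28.4 CPM under SAL and from 13.4 to 25.5 CPM under ASP (-0.25 ± 0.48 SE). Of the 17 alarmin and type 2 cytokine genes tested, 5 were positive, with a median of -0.15.

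The chemokines of that response also overlapped. Ccl11, eotaxin, which draws eosinophils, stood at 54.8, 93.6 and 74.1 CPM under SAL and 69.0, 15.8 and 54.4 CPM under ASP (-0.68 ± 0.62 SE), its lowest value being ASP replicate 2. Ccl24, eotaxin-2, had 0.959, 1.32 and 3.04 CPM under SAL and 3.46, 1.67 and 2.64 CPM under ASP (0.52 ± 0.82 SE). Ccl17, a ligand of the chemokine receptor CCR4 on T cells, ranged from 0 to 0.598 CPM under SAL and from 0.220 to 0.865 CPM under ASP (0.47 ± 1.44 SE). Ccl22, the other CCR4 ligand, ranged from 5.86 to 15.1 CPM under SAL and from 7.88 to 12.7 CPM under ASP (0.09 ± 0.61 SE). The log2 fold changes of these 4 ligands were near or below their SE. Ccl2, a monocyte attractant, stood at 6.71, 13.4 and 42.6 CPM under SAL and 7.6, 10.2 and 7.04 CPM under ASP (-1.34 ± 0.73 SE), with SAL replicate 3 high and a log2 fold change of -0.28 without it. Ccl27a, a keratinocyte chemokine for skin-homing T cells, ranged from 11.7 to 20.2 CPM under SAL and from 5.72 to 11.9 CPM under ASP (-0.94 ± 0.50 SE). The 13 tested members had a median of -0.04 (-0.25 to 0.32 without 1 library), with 6 positive and none without overlap.

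Genes of alternatively activated macrophages, the macrophage state of type 2 inflammation, had 15 of 22 members positive (median 0.21), and without SAL replicate 1 the median was -0.02. Retnla, a secreted marker of that state, had 35.3, 84.8 and 37.7 CPM under SAL and 67.9, 12.9 and 73.0 CPM under ASP (-0.04 ± 0.64 SE). Arg1, its arginase, stood at 9.43, 16.9 and 8.64 CPM under SAL and 12.5, 5.23 and 10.5 CPM under ASP (-0.31 ± 0.42 SE). Mrc1, the mannose receptor, ranged from 77.3 to 166 CPM under SAL and from 123 to 141 CPM under ASP (0.22 ± 0.31 SE). ASP replicate 2 was the lowest library for Retnla and Arg1. Timd4, a receptor for dying cells on resident macrophages, had 4.47, 2.03 and 3.13 CPM under SAL and 8.75, 5.91 and 5.28 CPM under ASP (1.05 ± 0.68 SE), higher without overlap.

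Genes that recognise fungi showed no common direction, with 13 of 24 positive and a median of 0.08. Clec7a, the glucan receptor Dectin-1, ranged from 1.33 to 4.91 CPM under SAL and from 1.21 to 4.52 CPM under ASP (-0.20 ± 0.72 SE) and overlapped. Card9, the adaptor below Dectin-1, stood at 0.160, 0.598 and 1.04 CPM under SAL and 1.25, 3.18 and 1.21 CPM under ASP (1.58 ± 0.82 SE), higher under ASP without overlap. Fcer1g, the signalling chain that Dectin-2 family receptors use, had 34.7, 62.3 and 59.9 CPM under SAL and 36.4, 35.1 and 31.9 CPM under ASP (-0.60 ± 0.30 SE). Of the SAL libraries only replicate 1 came within the ASP range for Fcer1g. Ticam1, the TRIF adaptor of toll-like receptors, ranged from 21.7 to 30.7 CPM under SAL and from 9.13 to 27.7 CPM under ASP (-0.68 ± 0.43 SE) and overlapped.

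In the IL-1 and IL-36 family, 11 of 18 tested genes were positive (median 0.18, and -0.01 without SAL replicate 1). Il1b stood at 0.479, 0.837 and 8.83 CPM under SAL and 2.5, 0.455 and 1.87 CPM under ASP (-1.11 ± 1.02 SE), and without SAL replicate 3 the log2 fold change was 1.25. Il36g, listed as Il1f9 and made by irritated keratinocytes, had 13.7, 29.0 and 21.8 CPM under SAL and 20.9, 34.6 and 38.0 CPM under ASP (0.53 ± 0.39 SE). Il36a, listed as Il1f6, ranged from 4.63 to 26.1 CPM under SAL and from 4.47 to 7.98 CPM under ASP (-1.04 ± 0.61 SE), and without SAL replicate 3 its log2 fold change was -0.08. Both overlapped. Il18r1, which binds IL-18, stood at 40.3, 12.1 and 12 CPM under SAL and 10.8, 10.2 and 9.35 CPM under ASP (-1.08 ± 0.48 SE), without overlap and with SAL replicate 1 far above the rest.

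Neutrophil chemokines and type 17 genes were scarce. Cxcl2 had 0, 0.718 and 6.74 CPM under SAL and 0.481, 0.0758 and 0.110 CPM under ASP (-3.46 ± 1.74 SE), all but absent outside SAL replicate 3, and Cxcl1 had 0, 0 and 1 counts under SAL and 2, 0 and 2 under ASP. Inflammatory cytokines and neutrophil chemokines had 7 of 20 tested genes positive (median -0.14, -0.26 to 0.08 without 1 library). Nos2, the inducible nitric oxide synthase, stood at 0.160, 0 and 0.190 CPM under SAL and 0.385, 1.36 and 0.330 CPM under ASP (2.47 ± 1.23 SE), higher without overlap on 1, 0 and 2 against 4, 18 and 3 counts. Only 15 of 28 type 17 and antimicrobial genes passed the filter, 5 of them positive (median -0.28, and 0.10 without SAL replicate 2). Il17a, Il17f, Il22 and Ifng had 0 counts in all 6 libraries, which hold 61488312 counts, and a count of 0 then allows up to 3 counts, or 0.0488 CPM of the pooled total. Defb6, a beta defensin, ranged from 2.08 to 4.43 CPM under SAL and from 3.27 to 9.46 CPM under ASP (1.10 ± 0.68 SE) and overlapped.

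Inflammasome and gasdermin genes, which drive lytic cell death and release of IL-1 family cytokines, stood lower in 16 of 20 tested members (median -0.20), and 4 were lower without overlap, where the background is 4.63%. The median was -0.02 without SAL replicate 2. Casp8, an initiator caspase of death receptors, stood at 62.8, 78.4 and 125 CPM under SAL and 61.4, 35.8 and 32.0 CPM under ASP (-1.04 ± 0.42 SE). Gsdmd, the pore former of pyroptosis, had 9.11, 8.25 and 15.5 CPM under SAL and 6.25, 4.24 and 3.30 CPM under ASP (-1.25 ± 0.51 SE). Gsdmc, a gasdermin of epithelia, stood at 10.1, 23.6 and 5.50 CPM under SAL and 5.19, 3.41 and 5.28 CPM under ASP (-1.5 ± 0.69 SE). In these 3 genes every ASP library lay below every SAL library, by narrow margins for Casp8 and Gsdmc. Nlrc4, the inflammasome protein that answers bacterial flagellin, had 25.4, 1.79 and 0.285 CPM under SAL and 0.481, 0.834 and 0.330 CPM under ASP (-3.98 ± 1.26 SE), and its SAL mean came from replicate 1. Interferon response genes had 22 of 37 positive (median 0.06). Irf9, a subunit of the interferon-activated complex ISGF3, stood at 11.2, 17.1 and 11.3 CPM under SAL and 18.7, 18.1 and 25.9 CPM under ASP (0.66 ± 0.32 SE). Psmb8, an immunoproteasome subunit, had 16.3, 21.8 and 17.8 CPM under SAL and 13.5, 10.2 and 10.7 CPM under ASP (-0.70 ± 0.39 SE). Irf9 was higher and Psmb8 lower without overlap.

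Lists of immune cell markers had medians from -0.86 in neutrophils to 0.15 in T cells. Neutrophil markers had 2 of 11 tested genes positive (median -0.86), of 19 in the table, and the median was -0.32 without SAL replicate 1 and -0.17 with no filter on low counts. Among its untested members, Elane, Ngp and Camp held 1, 1 and 4 counts over the 6 libraries, and Ctsg held 0. Ltf held 47 counts, 38 in SAL replicate 1 and 9 in ASP replicate 3. Prtn3 had 0, 4 and 12 counts under SAL and 7, 9 and 1 under ASP. Mmp8 had 1, 1 and 10 counts under SAL and 7, 2 and 1 under ASP. Mpo, the myeloperoxidase of neutrophil granules, stood at 2.88, 6.46 and 3.80 CPM under SAL and 0.865, 3.49 and 0.440 CPM under ASP (-1.43 ± 0.83 SE). Mmp9, a gelatinase also made by other cells, had 2.08, 3.23 and 3.61 CPM under SAL and 5.96, 4.55 and 4.07 CPM under ASP (0.70 ± 0.48 SE). Mpo overlapped, and Mmp9 was higher without overlap, against the direction of its list. Of eosinophil and basophil markers 7 of 13 were tested, 2 positive and 5 negative (median -0.19, -0.48 to 0.07 without 1 library). Among the untested, Prg2 held 2 counts over the 6 libraries, Epx 9, Cd200r3 24, and Prg3 and Mcpt8 0. Ear6, also untested, had 1, 1 and 4 counts under SAL and 3, 13 and 11 under ASP. Ear1 stood at 0.639, 2.99 and 1.90 CPM under SAL and 2.88, 1.52 and 3.63 CPM under ASP (0.51 ± 0.73 SE) and overlapped. Siglecf, a lectin of eosinophils, stood at 1.44, 4.91 and 2.94 CPM under SAL and 1.25, 0.758 and 1.32 CPM under ASP (-1.48 ± 1.03 SE), lower without overlap.

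Mast cell markers had negative values in 11 of 14 tested genes (median -0.41, -0.58 to -0.24 without 1 library). Cpa3, the carboxypeptidase of mast cell granules, had 62.9, 108 and 61.4 CPM under SAL and 44.0, 42.9 and 60.3 CPM under ASP (-0.66 ± 0.38 SE). Tpsab1, a tryptase, stood at 5.59, 5.98 and 1.61 CPM under SAL and 1.25, 2.20 and 1.54 CPM under ASP (-1.38 ± 0.71 SE). Hdc, which makes histamine, had 3.83, 0.837 and 6.83 CPM under SAL and 1.06, 0.834 and 2.31 CPM under ASP (-1.47 ± 0.78 SE). Cpa3 did not overlap, by a margin of about 1 CPM, and Tpsab1 and Hdc did.

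Macrophage markers lay at the all-gene median, with 14 of 28 positive (median 0.00). Among the complement genes, made by tissue macrophages, C1qc and C1qa went apart, while C1qb was not among the genes named by the rule. C1qc stood at 121, 116 and 87.1 CPM under SAL and 73.5, 39.9 and 53.4 CPM under ASP (-0.96 ± 0.29 SE), lower without overlap. C1qa had 6.39, 3.23 and 5.98 CPM under SAL and 7.31, 9.70 and 15.8 CPM under ASP (1.07 ± 0.66 SE), higher without overlap. Spi1, the myeloid transcription factor PU.1, ranged from 11.5 to 25.1 CPM under SAL and from 6.93 to 17.7 CPM under ASP (-0.74 ± 0.54 SE) and overlapped.

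Dendritic and Langerhans cell markers had 12 of 22 positive (median 0.14, and -0.29 without ASP replicate 3). Apart from Cd209a, Batf3, a factor of cross-presenting dendritic cells, stood at 1.76, 1.08 and 0.949 CPM under SAL and 0.385, 0.379 and 0.220 CPM under ASP (-1.88 ± 1.04 SE). Cd86, a costimulatory ligand, ranged from 1.6 to 6.07 CPM under SAL and from 3.03 to 17.7 CPM under ASP (1.08 ± 0.66 SE), with ASP replicate 3 high. Genes of antigen presentation on MHC class II had negative values in 10 of 12 (median -0.21), none without overlap, and the median was 0.06 without SAL replicate 2. Cd74, the invariant chain, had 1158, 2122 and 1443 CPM under SAL and 1175, 489 and 516 CPM under ASP (-1.12 ± 0.47 SE). H2-Ab1, a class II beta chain, stood at 95.8, 145 and 108 CPM under SAL and 96.8, 54.3 and 47.9 CPM under ASP (-0.81 ± 0.31 SE). For both genes ASP replicates 2 and 3 lay below every SAL library and ASP replicate 1 lay within the SAL range.

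T cell markers had no common direction. Cd4 had 1.92, 5.98 and 2.75 CPM under SAL and 0.481, 1.52 and 1.32 CPM under ASP (-1.67 ± 0.92 SE). Cd8a stood at 1.28, 1.08 and 1.52 CPM under SAL and 0.192, 0.227 and 0.660 CPM under ASP (-1.84 ± 1.04 SE). Both were lower without overlap. Cd3g of the T cell receptor complex ranged from 0.949 to 1.91 CPM under SAL and from 1.63 to 3.96 CPM under ASP (1.00 ± 0.62 SE) and overlapped. The 25 tested T cell and innate lymphoid markers had 14 positive (median 0.15), and without ASP replicate 1 the median was -0.07. B and plasma cell markers had 3 of 9 tested positive and 6 negative (median -0.29, -0.39 to -0.09 without 1 library). Without overlap, 2 stood lower, Tnfrsf13c and the Dapp1 described above, and 0 higher, beside 4.63% and 5.85% of all genes. Ms4a1, the CD20 antigen of B cells, was too scarce to test at 10 counts over the 6 libraries. Tnfrsf13c, the BAFF receptor of B cells, had 2.88, 6.10 and 1.99 CPM under SAL and 0.385, 0.152 and 0.440 CPM under ASP (-3.47 ± 0.81 SE), lower without overlap. Ebf1, a B lineage factor that fat and stroma also express, ranged from 11.1 to 54.5 CPM under SAL and from 12.3 to 23.0 CPM under ASP (-0.90 ± 0.46 SE) and overlapped, with -0.24 without SAL replicate 3.

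**Figure D5:**
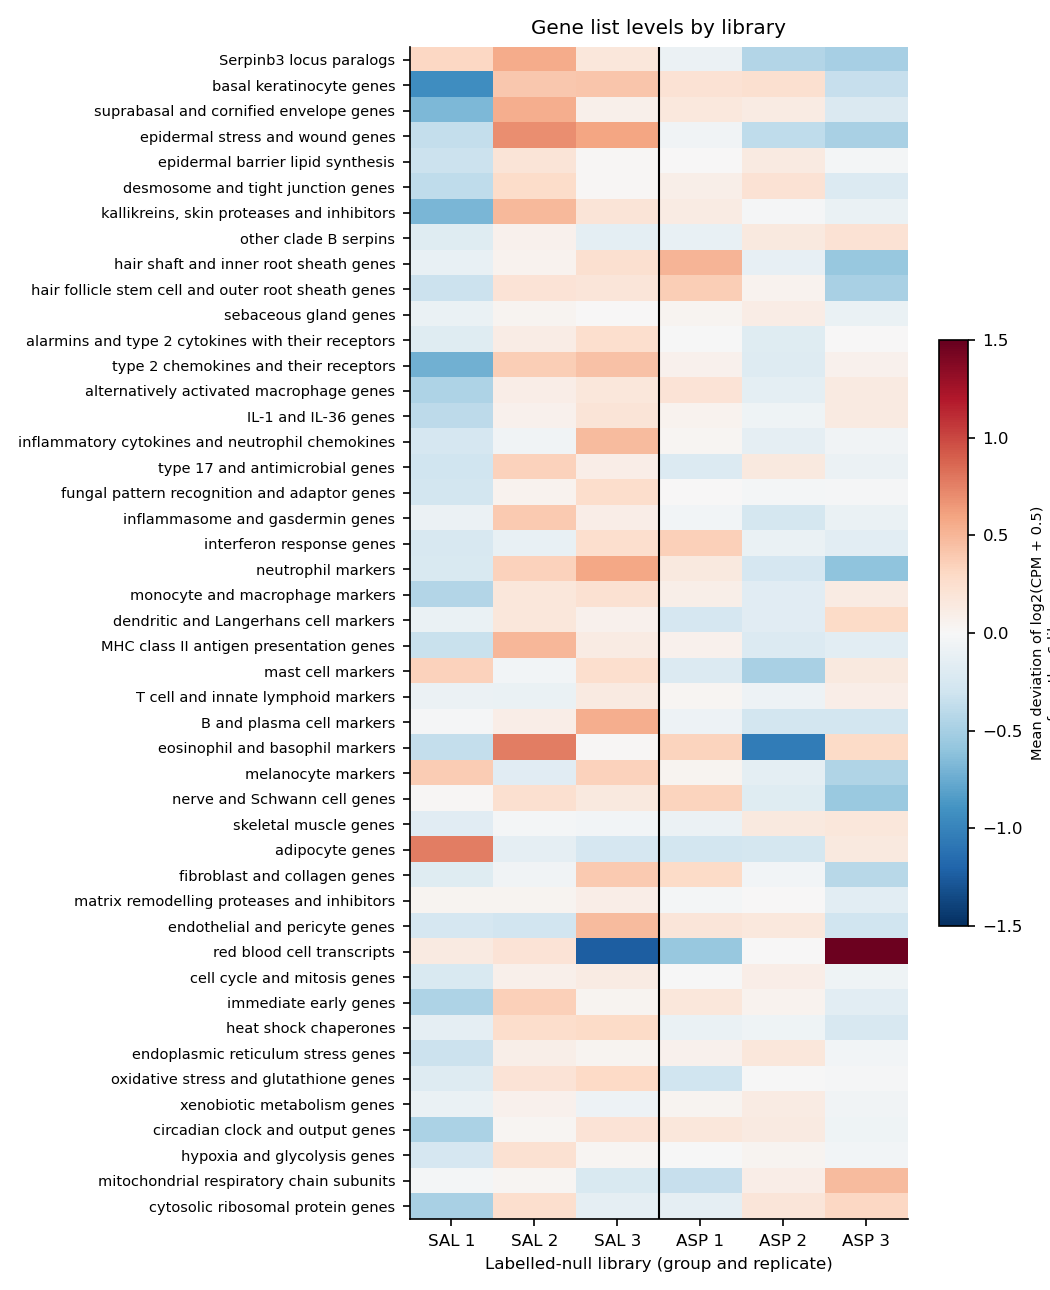
Mean deviation of log2(CPM + 0.5) from the 6-library mean over the tested members of each gene list (rows) in each labelled-null library (columns), with SAL left and ASP right of the line. Red is above and blue below the mean; SAL replicate 1 is low for basal and suprabasal lists and high for adipocyte genes, and ASP replicate 3 is high for red blood cell transcripts.

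Adipocyte genes had negative values in 22 of 29 members (median -0.31), and without SAL replicate 1 the median was 0.08. Plin1, which coats lipid droplets, stood at 656, 242 and 156 CPM under SAL and 134, 146 and 129.6 CPM under ASP (-1.36 ± 0.45 SE). Gpd1, which makes glycerol phosphate for fat, had 587, 349 and 333 CPM under SAL and 271, 169 and 237 CPM under ASP (-0.91 ± 0.40 SE). Retn, the adipokine resistin, stood at 208, 44.1 and 24.7 CPM under SAL and 31.1, 16.9 and 39.7 CPM under ASP (-1.66 ± 0.64 SE). Adipoq, adiponectin, ranged from 64.4 to 182 CPM under SAL and from 50.8 to 125 CPM under ASP (-0.35 ± 0.59 SE). SAL replicate 1 held the highest value of all 4 genes, and Plin1 and Gpd1 were lower under ASP without overlap.

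Skeletal muscle genes had 21 of 33 positive (median 0.19, 0.04 to 0.28 without 1 library) and went both ways. Ckm had 1803, 1185 and 1235 CPM under SAL and 936, 657 and 814 CPM under ASP (-0.81 ± 0.42 SE). Myl1, a fast-fibre myosin light chain, stood at 947, 1317 and 788 CPM under SAL and 535, 460.1 and 673 CPM under ASP (-0.87 ± 0.45 SE). Both were lower under ASP without overlap. Pygm, the glycogen phosphorylase of muscle, had 116, 86.1 and 109 CPM under SAL and 118, 233 and 300.0 CPM under ASP (1.07 ± 0.51 SE), higher without overlap, though SAL replicate 1 nearly reached ASP replicate 1. Acta1, skeletal actin, ranged from 906 to 1322 CPM under SAL and from 907 to 1528 CPM under ASP (0.28 ± 0.39 SE) and overlapped. Myog, a factor of new muscle fibres, held 0, 0 and 1 counts under SAL and 15, 11 and 1 under ASP, too few to read a direction.

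Red blood cell transcripts had the highest median, 0.88 over 8 tested members, and without ASP replicate 3 it was -0.28. These members are not independent. Hba-a1 and Hba-a2 had the same counts, as did Hbb-b1 and Hbb-b2, and each copy entered the median. Hbb-b1 and Hbb-b2, adult beta globin genes with the same count in every library, stood at 4.63, 8.61 and 1.52 CPM under SAL and 2.69, 5.31 and 25.5 CPM under ASP each (1.18 ± 0.87 SE). Alas2, the first enzyme of haem synthesis in erythroid cells, had 2.72, 0.957 and 1.71 CPM under SAL and 3.65, 3.33 and 7.26 CPM under ASP (1.41 ± 0.60 SE). ASP replicate 3 was the highest library for both. Endothelial genes had 11 of 27 positive (median -0.04). Kdr, the VEGF receptor of vessels, stood at 9.11, 3.59 and 10.5 CPM under SAL and 15.3, 18.0 and 14.5 CPM under ASP (1.04 ± 0.48 SE). Cldn5, a claudin of endothelial junctions, had 0.160, 0.239 and 0.190 CPM under SAL and 1.25, 1.74 and 0.440 CPM under ASP (2.47 ± 1.19 SE). Both were higher without overlap, Cldn5 on 1 to 23 counts per library.

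Fibroblast and collagen genes had 13 of 30 members positive (median -0.03). Tnc, a matrix protein of wounds, stood at 4.95, 10.9 and 51.4 CPM under SAL and 12, 8.64 and 3.19 CPM under ASP (-1.5 ± 0.80 SE), SAL replicate 3 being high. Bgn, a small collagen-binding proteoglycan, ranged from 256 to 386 CPM under SAL and from 107 to 297 CPM under ASP (-0.83 ± 0.49 SE) with overlap. Matrix proteases had 12 of 29 positive (median -0.12). Mmp27 had 0.959, 1.56 and 1.23 CPM under SAL and 5.10, 2.12 and 2.64 CPM under ASP (1.38 ± 0.63 SE), higher without overlap. The collagenase Mmp13 ranged from 0.320 to 4.18 CPM under SAL and from 0 to 0.530 CPM under ASP (-2.68 ± 1.35 SE) with overlap. Melanocyte and nerve lists shared Sox10, a factor of neural crest cells, which stood at 8.79, 5.14 and 15.1 CPM under SAL and 4.71, 2.73 and 0.880 CPM under ASP (-1.80 ± 0.65 SE), lower without overlap. Tyrp1, a pigment enzyme, had 15.8, 1.67 and 4.08 CPM under SAL and 0.481, 1.67 and 0.330 CPM under ASP (-3.05 ± 0.95 SE), and its SAL replicate 2 and ASP replicate 2 were level. The 10 tested melanocyte markers had a median of -0.10 and the 12 nerve and Schwann cell genes -0.20.

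The endoplasmic reticulum stress list, which holds Calr, had 13 of 24 members positive (median 0.07). Ddit3, the stress factor CHOP, stood at 2.24, 2.03 and 1.8 CPM under SAL and 5.38, 4.62 and 3.30 CPM under ASP (1.13 ± 0.66 SE), higher without overlap. Dnajb9, a chaperone induced by the unfolded protein response, had 116, 71.5 and 34.7 CPM under SAL and 37.9, 34.4 and 43.7 CPM under ASP (-0.94 ± 0.36 SE). The Dnajb9 value rests on SAL replicates 1 and 2. Circadian genes had 12 of 20 positive (median 0.19, 0.02 to 0.30 without 1 library). Besides Per3, Per1 stood at 21.9, 34.2 and 83.3 CPM under SAL and 26.4, 24.4 and 22.6 CPM under ASP (-0.93 ± 0.43 SE), with SAL replicate 3 high. Ciart, a repressor within the clock, ranged from 1.28 to 10.7 CPM under SAL and from 2.75 to 3.36 CPM under ASP (-1.20 ± 0.61 SE). The labels give no hour of collection.

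Among immediate early genes, 11 of 26 were positive (median -0.01). Nr4a1, a nuclear receptor induced by many stimuli, had 32.6, 15.6 and 13.7 CPM under SAL and 9.52, 8.72 and 11.6 CPM under ASP (-1.05 ± 0.45 SE), lower without overlap. Fosb, an AP-1 subunit, stood at 0.479, 3.71 and 4.18 CPM under SAL and 5.96, 6.52 and 8.36 CPM under ASP (1.29 ± 0.71 SE), higher without overlap. Cell cycle genes had 26 of 43 positive (median 0.04). Ccnb1, the mitotic cyclin, ranged from 8.73 to 34.7 CPM under SAL and from 6.83 to 9.90 CPM under ASP (-1.24 ± 0.47 SE). Ccne1, a cyclin of S phase entry, had 3.83, 1.67 and 2.47 CPM under SAL and 0.288, 0.606 and 0.770 CPM under ASP (-2.23 ± 1.01 SE). Ccne1 did not overlap, and Ccnb1 did.

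The hypoxia and glycolysis list had 13 of 25 members positive (median 0.03). Egln1, the prolyl hydroxylase that marks HIF for decay, stood at 105, 80.0 and 97.6 CPM under SAL and 65.7, 54.9 and 64.2 CPM under ASP (-0.61 ± 0.27 SE), lower without overlap. Egln3, its inducible relative, ranged from 57.9 to 147 CPM under SAL and from 33.2 to 75.2 CPM under ASP (-0.96 ± 0.41 SE) with overlap. Xenobiotic metabolism genes had 19 of 36 positive (median 0.05). Ahrr, a repressor of the aryl hydrocarbon receptor, had 0.479, 1.91 and 1.04 CPM under SAL and 2.69, 3.56 and 2.64 CPM under ASP (1.35 ± 0.76 SE), higher without overlap.

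Ribosomal protein genes, which have many processed copies that can share their reads, had 44 of 57 members positive (median 0.27, 0.11 to 0.41 without 1 library), and in wild type 55 of 57 were (median 0.88). Respiratory chain subunits had 36 of 49 positive (median 0.22, 0.02 to 0.38 without 1 library). Rps28, a small-subunit protein, stood at 6.39, 8.25 and 6.74 CPM under SAL and 12.7, 14 and 14.3 CPM under ASP (0.94 ± 0.49 SE). Rps12, another, had 25.6, 36.5 and 26.9 CPM under SAL and 53.3, 43.0 and 47.8 CPM under ASP (0.70 ± 0.43 SE). Both were higher without overlap. Atp5b, the catalytic subunit of ATP synthase, stood at 1152, 2438 and 1447 CPM under SAL and 929, 846 and 788 CPM under ASP (-0.97 ± 0.39 SE), lower without overlap. These transcripts are short, with median annotated lengths of 1120 and 1232 bases for the ribosomal and respiratory lists against 3366 over all genes with a length. In the shortest class of 5 equal length classes of genes, these lists left out, genes had a median log2 fold change of 0.01 in labelled-null skin and 0.19 in wild type. The part of transcript length in the ribosomal values was not tested.

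The response in labelled-null skin was set against that in wild-type skin. The interaction test, which asks whether the ASP effect differs between genotypes, called 0% of genes at an adjusted p under 0.05, with a smallest adjusted p of 0.998 and 585 genes at an unadjusted p under 0.05, while DESeq2 called 1 gene, Gm15093. In wild type 0 genes were called too, and 727 had an unadjusted p under 0.05. Across the 15341 genes, which are not independent replicates, the log2 fold changes of the genotypes had a Pearson correlation of 0.0131, a Spearman correlation of 0.0729 and the same sign in 52.6% of genes. Over the 9213 genes at 3 or more on the log2 CPM scale the Pearson correlation was 0.106. The comparisons share no library. For the 12 higher genes with the smallest p, chosen on labelled-null values, the median log2 fold change was 1.61 in labelled-null and 0.13 in wild-type skin, and 8 of 12 were positive there. For the 12 lower genes the medians were -1.56 and 0.01, and 6 of 12 were negative in wild type. Since the genes were chosen for their labelled-null values, the smaller wild-type values give no test.

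Single genes show how the genotypes compared. Hsph1 had -0.73 ± 0.32 in wild type against -1.23 ± 0.32 in labelled-null skin (difference -0.50 ± 0.45 SE), and Neat1 0.77 ± 0.36 against 1.09 ± 0.36 (difference 0.32 ± 0.50 SE). Both therefore had the same sign in both genotypes. Dapp1 had 0.06 ± 0.42 against -1.84 ± 0.43 (difference -1.90 ± 0.59 SE), and Serpinb3a 0.47 ± 0.66 against -1.88 ± 0.61 (difference -2.35 ± 0.90 SE). Ccl24, eotaxin-2, had 3.56 ± 0.98 in wild type against 0.52 ± 0.82 in labelled-null skin (difference -3.03 ± 1.26 SE). It was scarce in both, with means under SAL and ASP of 0.184 and 2.24 CPM in wild type. In labelled-null skin these means were 1.77 and 2.59 CPM. Nlrc4 had 4.26 ± 1.32 in wild type, higher without overlap, against -3.98 ± 1.26 in labelled-null skin (difference -8.24 ± 1.82 SE). Its labelled-null SAL mean came from replicate 1. Gsdmc and Nr4a1, lower without overlap in labelled-null skin, were so in wild type too, at -2.87 ± 0.73 and -1.73 ± 0.46. No difference passed adjustment in edgeR. Type 2 chemokines had a median of 0.86 in wild type against -0.04, monocyte and macrophage markers 0.50 against 0.00, hair shaft genes -1.39 against -0.21 and skeletal muscle genes -0.48 against 0.19. Epidermal stress genes had 0.00 in wild type against -0.76, and neutrophil markers 0.42 against -0.86. The wild-type values rest in part on ASP replicates 2 and 3, which stood apart. They had a count for 19442 and 16220 genes, against 17165 to 17482 in the other wild-type libraries. Their quality weights in limma-voom were 0.531 and 0.418, against 0.917 to 1.23. Whether any list's response differed between genotypes was not tested.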

How the data were processed

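RNA-seq of patched skin gave whole-number counts per gene in the table the authors deposited, not normalized, for 23469 Entrez gene IDs. Per the submitters' processing notes, bcl2fastq, CASAVA 1.8, TopHat, DESeq and the mm10 build were used; the counter, its annotation and the strandedness were not given in these sources. Per the labels' protocols, total RNA was extracted with a column kit and Illumina libraries were made. Of 18 value columns, 12 matched the titles of a sample and were used; the other 6 matched none and were left out. Symbols for 23372 IDs, coordinates and promoter sequences came from RefSeq (GRCm38.p6), and 97 IDs had no symbol. Depth of the 12 libraries is given as total counts, and intervals from a count of 0 cover counting error only.

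All 12 libraries in 4 groups were fitted in R 4.3.3 with edgeR 4.0.16 (filterByExpr, TMM scaling, robust quasi-likelihood F-test, Benjamini-Hochberg adjustment over all 15341 genes, threshold 0.05), contrasting ASP with SAL within the labelled-null genotype, and the same contrast between genotypes as an interaction. The procedure was tested on simulated data. Alternatives were DESeq2 1.42.0, limma 3.58.1 (voom with quality weights), other scalings and filters, the robust option off and a replicate block. Others used the 6 labelled-null libraries alone or left out each labelled-null library in turn. Further fits left out the Mup genes with the IDs lacking a symbol, or wild-type ASP replicates 2 and 3 together. Genes were named by a rule: the Serpinb3 cluster, up to 12 per direction ranked by p among genes whose groups did not overlap and whose mean reached 1 on the log2 CPM scale, up to 4 per gene list, and a set of role genes. The 46 lists hold 1139 genes of the table, and 21 list symbols were not in it. Members, lists and the rule were chosen with earlier results of these data known.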

Additional observations from a re-analysis of the deposited data

How the results depend on the processing

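The finding of 0 genes called higher and 0 lower held under every alternative except DESeq2, which called 0 higher and 2 lower. These were Gm15093 (adjusted p = 0.00117, with 104 counts in SAL replicate 1 and 0 in the other labelled-null libraries) and Gsta2 (adjusted p = 0.0473, log2 fold change -3.61, with 805 counts in SAL replicate 3 and at most 49 elsewhere). DESeq2 also called 1 gene in the interaction, again Gm15093, which was chosen for naming after its values were seen. The smallest adjusted p was 0.0898 with limma-voom, 0.837 on the 6 labelled-null libraries alone, and 0.509 to 1 when 1 library was left out. Genes at an unadjusted p under 0.05 numbered 154 to 343 higher and 180 to 660 lower when 1 library was left out, against 632 and 906 with limma-voom.

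Deviations of same-numbered SAL and ASP libraries from their group means correlated at -0.0155, 0.106 and -0.147. Those of differently numbered libraries correlated at -0.135 to 0.132. With 3 libraries a group, such values cannot decide whether replicate numbers pair the samples. With a replicate block, 0 genes were called in either direction, with 234 higher and 349 lower at an unadjusted p under 0.05.

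Among values for single genes under the alternatives, 2378 kept their direction and their side of the threshold and 30 turned sign, all among genes that overlapped between groups; the causes were not tested. With limma-voom, Ccl24 came to -0.0634, Mrc1 to -0.0167, Adipoq to 0.10, Il33 to -0.14, Ccl22 to -0.0605 and Krt6a to -0.22. With the replicate block Krt6a came to -0.22 and Retnla to 0.14, and with upper-quartile scaling, which moved the all-gene median to 0.05, Retnla came to 0.0183. When 1 library was left out, the log2 fold change ran from -1.97 to 0.00479 for Tnc, from -0.28 to 1.88 for Hbb-b1, from -0.28 to 1.88 for Hbb-b2 and from -1.60 to 1.25 for Il1b. It ran from -0.58 to 0.0464 for Arg1, from -0.68 to 0.17 for Adipoq, from -0.65 to 0.21 for Krt14 and from -0.19 to 0.71 for Lor. The range was from -0.0356 to 0.84 for Ccl17, from -0.82 to 0.30 for Clec7a, from -0.57 to 0.33 for Krt16 and from -0.32 to 0.26 for Ivl. Values went from -0.20 to 0.36 for Il33, from -0.18 to 0.54 for Ccl22, from -0.31 to 0.50 for Krt6a and from -0.38 to 0.48 for Retnla. List medians moved by more than the spread between replicates in 29 cases, most often for neutrophil, T cell and matrix protease lists. Depth limits the scarce genes, since many cytokines and lineage markers held fewer than 10 counts in a library.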

Other observations

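The Mup genes, liver-type lipocalins that bind pheromones, had similar negative values. Of 21 tested, log2 fold changes ran from -1.36 to -0.93 with a median of -1.29 and a median SE of 0.60, and 2 were lower under ASP without overlap, beside 4.63% of all genes.

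Genes held at 5 CPM or more by 1 library, at 5 times or more the level of each other labelled-null library, were uneven across libraries. SAL replicate 1 had 92 such genes, SAL replicates 2 and 3 had 12 and 11, and the ASP libraries had 5, 2 and 2. Among those of SAL replicate 1 were 10 genes of the Btbd35f family, similar copies on chromosome X, named here after their values were seen. They stood at 19.7 to 82.3 CPM (median 39.9) in SAL replicate 1, at 0 in SAL replicates 2 and 3 and ASP replicate 2, and at no more than 1.83 CPM in ASP replicate 1 and 0.770 CPM in ASP replicate 3.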
